A study of Macaca fascicularis with 3 samples.

Results

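Chemokines are small secreted proteins that steer migrating cells, and their genes and those of their receptors were measured in 2 muscles of the cynomolgus macaque (Macaca fascicularis). The members were every row of the deposited gene tables whose symbol starts with CCL, CXCL, XCL1, XCR1, CX3C, CCR or CXCR (followed by a digit where the stem has none), together with ACKR1 to ACKR4. This rule used names only, not measured values. It found 60 of the 33368 rows of the cell table (38 ligands, 18 receptors and 4 atypical receptors) and 51 of the 38550 rows of each nuclei table (29 ligands, 18 receptors and 4 atypical receptors), 61 distinct genes in all. Of these, 50 were in all 3 tables, 10 were only in the cell table (CCL3, CCL5, CCL20, CCL22, CCL24, CCL27, CXCL1L, CXCL3, CXCL3_1 and XCL1) and CXCL5 was only in the nuclei tables. A row that a table does not list was not measured there, so nothing is said of those 10 ligands in nuclei.

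The series holds 1 library of single cells from extraocular muscle (EOM, the muscles that move the eye), 1 library of nuclei from EOM and 1 library of nuclei from quadriceps femoris muscle (QFM, a thigh muscle). No treatment is named in the labels, and the age, sex and number of animals were not given in the sources used here. With 1 library of each kind there is no replicate, so no test was made. Intervals in parentheses are exact 95% intervals that cover counting error only, and any difference between the muscles is a difference between 2 libraries.

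Chemokine ligands bind seven-pass receptors that signal through Gi proteins, and many are held on heparan sulfate at cell surfaces and in matrix, where passing leukocytes meet them. The inflammatory CC and CXC ligands recruit monocytes, neutrophils and lymphocytes, while CXCL12 acts as a homeostatic ligand that retains stem and blood cells through CXCR4. Atypical receptors (ACKR1 to ACKR4) bind chemokines without Gi signalling and take them up or carry them across cells. In skeletal muscle, chemokines from resident macrophages, vessels and stromal cells are known for bringing leukocytes in after injury, and CXCL12 is known for guiding myogenic cells that carry CXCR4.

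The EOM cell library held 8979 barcodes and 12248405 unique transcripts (UMIs), the EOM nuclei 16491 barcodes and 61618999 UMIs, and the QFM nuclei 12503 barcodes and 72590186 UMIs. Quality filters and the removal of doublets left 7111, 13975 and 10525 barcodes, with median depths of 1142, 2811 and 4508 UMIs. The median mitochondrial share was 11.9% in cells and at most 0.459% in nuclei. The 2 nuclei libraries shared 51 barcodes, and the cell library, whose barcodes have 27 letters, shared none. Each library was clustered by itself with the members kept out of the clustering, and clusters were named from marker genes. Each class name below stands for cells that resemble that type in these markers ("-like"), not for a sorted population. Levels are in CPM, a gene's share of all UMIs of the class times 1000000, and are compared between classes for 1 gene, not between genes, since the counts are not scaled to gene length.

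Several names rest on thin ground. The neutrophil class in EOM cells was led by MMP9, ORM1 and CSF3R but also by S100A8 and S100A9, which monocytes share. The venular cluster of EOM cells was led by PLVAP, SELP and SELE but also by MMRN1 and PROX1, genes of lymphatic endothelium. In EOM cells the fibroblast cluster led by ABCA9 and COL15A1 and the arterial cluster led by SSUH2 and APOA1 had no marker of their own class and 1 of another among their top 10 genes. The same held for the largest EOM nuclei fibroblast cluster, with SCN7A and EPHA3 among its top 10 genes. Some clusters scored higher on another list that had fewer than 3 markers detected. In EOM nuclei a myofibre cluster of 1688 nuclei scored 0.84 on its own list and 1.29 on the adipocyte list. On the epithelial list, a myofibre cluster of 196 nuclei scored 1.52 (own list 0.93) and a Schwann cluster of 85 nuclei 2.51 (own list 1.53). In EOM nuclei 929 nuclei (6.648%) stayed unnamed. The dendritic class of EOM nuclei held 55 nuclei, none of whose top 10 genes was a dendritic marker on the list. Among the EOM cells, the B cell (37 barcodes), myofibre (33) and satellite cell (32) classes were small.

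In EOM cells, ligands and signalling receptors lay mainly with immune cells and atypical receptors with vessels and stroma. The immune classes made up 21.64% of the barcodes used and 20.89% of their UMIs. They held 51.26% (50.66 to 51.87) of the 26722 ligand UMIs and 88.64% (86.3 to 90.7) of the 845 receptor UMIs, but 1.519% (1.257 to 1.82) of the 7635 atypical receptor UMIs. In nuclei the immune classes were fewer, 4.021% of EOM and 2.974% of QFM barcodes, and held 16.78% and 15.59% of receptor UMIs and 3.612% and 3.231% of ligand UMIs. The ligand shares of cells and nuclei are over different gene sets, since 10 ligands of the cell table were not measured in nuclei. Among them CCL3, CCL5 and CXCL3 had 3515, 2315 and 1091 UMIs in EOM cells. Of the members, 36 of 60 reached 20 UMIs in the used EOM cells, 16 had 1 to 19 and 8 had none (CCR4, CCR8, CCR9, CXCR6, CXCL13, CCL11, CCL14 and CCL16). In the nuclei libraries 21 and 20 of 51 reached 20 UMIs, and 8 and 9 had none.

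**Figure D1:**
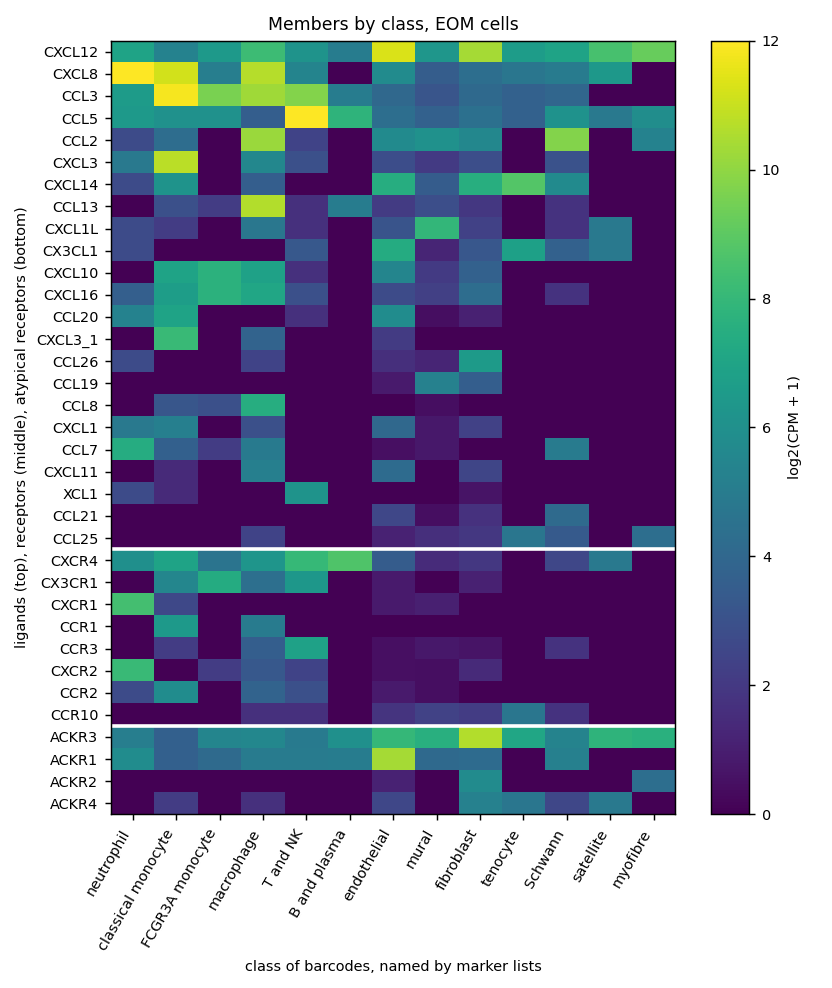
Levels of members in the classes of the EOM cell library, on a log2(CPM + 1) colour scale whose top colour also covers higher values, with members in rows grouped as ligands, receptors and atypical receptors and classes in columns. The brightest cells include CXCL8 in neutrophils (13597 CPM), CCL5 in T and NK cells (4578 CPM), CCL3 in classical monocytes (3659 CPM) and CXCL12 in endothelium (2556 CPM).

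CXCL12, the homeostatic ligand of CXCR4 and ACKR3, was a product of vessels and fibroblasts. In EOM cells it had 9117 UMIs, with 2556 CPM (2493 to 2620) in endothelium and 1314 CPM (1261 to 1369) in fibroblasts. Some 63.72% of 1778 endothelial cells and 62.06% of 1455 fibroblasts carried a CXCL12 UMI, against 3.409% of 616 T and NK cells (median depths of 997.5, 1036 and 672.5 UMIs). The small myofibre and satellite cell classes had 598.1 and 364.3 CPM on 31 and 13 UMIs, macrophages 299.7 CPM and mural cells 78.4 CPM. Among mural cells the pericyte cluster had 385.6 CPM (314.7 to 467.6), and both smooth muscle clusters had less, 48.14 and 44.85 CPM. Within endothelium CXCL12 changed by vessel type. The capillary cluster had 6772 CPM (6511 to 7041), a cluster led by the transporter genes SLC2A1 and ABCB1 had 5112 CPM (4874 to 5358), and both arterial clusters had 3221 and 1550 CPM. The venular cluster had 229.3 CPM (199.6 to 262.1), so the clusters differed by far more than counting error, with the capillary cluster highest and the venular cluster lowest.

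ACKR1, the atypical receptor that venular endothelium uses to carry inflammatory chemokines to its luminal face, was highest in the venular cluster, where CXCL12 was lowest. Its 3464 UMIs in EOM cells gave 3273 CPM (3158 to 3391) in the venular cluster, where 86.13% of 548 cells carried one. The capillary cluster had 430.3 CPM, the SLC2A1 cluster 283.2 CPM, and the arterial clusters together 12.45 CPM (5.972 to 22.9). Outside endothelium no class had more than 56.05 CPM, the value in neutrophils, and mural cells had 16.03 CPM.

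ACKR3, the scavenging receptor for CXCL12 and CXCL11, was highest in the cells that also made CXCL12 outside the vessels. Fibroblasts had 1566 CPM (1508 to 1626) of its 3988 UMIs in EOM cells, endothelium 251.5 CPM and mural cells 188.2 CPM. Both fibroblast clusters carried it, at 1723 CPM (1655 to 1794) in the one led by SFRP2 and SEMA3C and 938.6 CPM (839.6 to 1046) in the one led by ABCA9 and COL15A1. Within endothelium the venular cluster was highest at 520.7 CPM (475.4 to 569.1), and the capillary cluster had 48.11 CPM. The same fibroblasts often held both genes. A UMI of both CXCL12 and ACKR3 was found in 611 of 1455 fibroblasts (41.99%), and ACKR3 was seen in 67.66% of fibroblasts with a CXCL12 UMI and in 55.62% of the rest. Deeper cells are more likely to show both genes, and the part of depth in this difference was not tested.

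**Figure D2:**
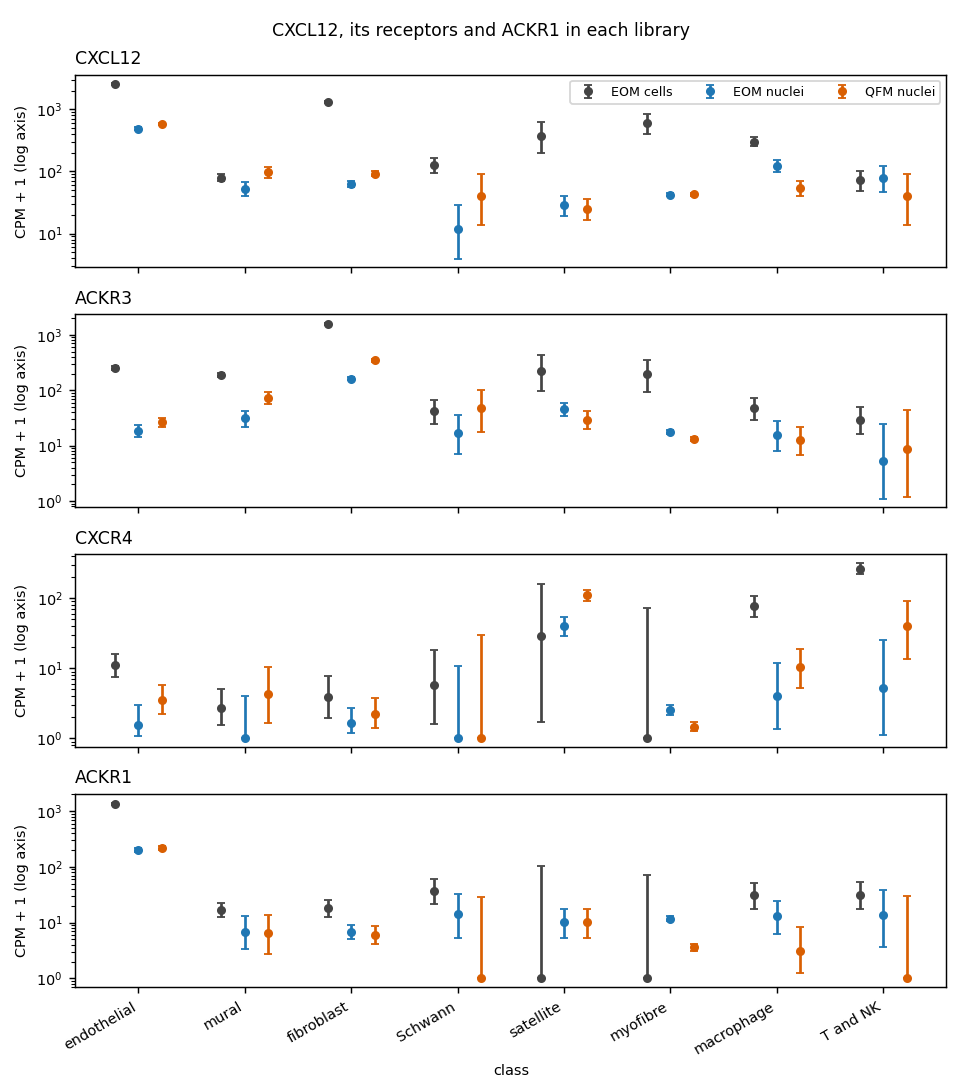
Levels of CXCL12, CXCR4, ACKR3 and ACKR1 by class in the 3 libraries, as CPM + 1 on a log axis, with exact 95% Poisson intervals as bars. Among the 8 classes drawn, in all 3 libraries endothelium was the highest class for CXCL12 and ACKR1 and fibroblasts for ACKR3.

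The remaining atypical receptors were sparse and stromal. ACKR2, which degrades inflammatory CC ligands, had 94 of its 98 UMIs in EOM cells in fibroblasts, at 54.05 CPM (43.67 to 66.14). ACKR4, which takes up CCL19, CCL21 and CCL25, had 65 of 85 UMIs in fibroblasts, at 37.37 CPM (28.84 to 47.63).

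CXCL8, the main neutrophil attractant, was the leading product of the neutrophil class itself. It had 4786 UMIs in EOM cells. The neutrophil class reached 13597 CPM (13061 to 14149), with a UMI in 90.64% of 267 cells, against 1.613% of 1860 mural cells that were deeper (median of 1499.5 against 603 UMIs). Classical monocytes had 2303 CPM (2183 to 2428) and macrophages 1619 CPM (1504 to 1740), while FCGR3A monocytes had 33.54 CPM. CXCL8 made up 95.51% of the ligand UMIs of the neutrophil class. With a higher UMI minimum per barcode the neutrophil level was 9006 CPM for CXCL8, 186.8 CPM for CXCR1 and 145.3 CPM for CXCR2. That setting drops shallow barcodes and clusters and names the rest anew, and the part of each step was not tested. The CXCL8 receptors CXCR1 and CXCR2 were in the same class, at 336.3 CPM (256.6 to 432.9; 60 of 68 UMIs) and 280.2 CPM (208 to 369.5; 50 of 62 UMIs). A CXCR1 UMI was seen in 17.23% and a CXCR2 UMI in 16.48% of neutrophils. Because CXCR1 and CXCR2 are near copies, reads could be shared between them.

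The other ligands of CXCR2 were made elsewhere. CXCL3 had 1024 of 1091 UMIs in classical monocytes, at 1710 CPM (1607 to 1818), and CXCL3_1, a second copy, had 166 of 180 UMIs there, at 277.3 CPM (236.7 to 322.8). CXCL1 was low everywhere, with 35.07 CPM (21.71 to 53.61) in classical monocytes and 37.5 CPM in the venular cluster, levels that counting error does not separate. Its neighbour CXCL1L was instead a mural product. Mural cells held 697 of 741 CXCL1L UMIs, at 242.9 CPM (225.2 to 261.6), led by the pericyte cluster with 456.7 CPM (379.2 to 545.3) over the smooth muscle clusters with 279.1 and 184.4 CPM. How reads were shared between these near copies (CXCL1 with CXCL1L, CXCL3 with CXCL3_1) was not given in the sources used here.

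Among the CC ligands, CCL3, which binds CCR1, followed the monocytes. Of its 3515 UMIs in EOM cells, 2191 were in classical monocytes, at 3659 CPM (3508 to 3816), with a UMI in 72.27% of 220 cells. Macrophages had 1269 CPM, T and NK cells 888.3 CPM and FCGR3A monocytes 761.3 CPM. Mural cells had 8.014 CPM. CCL20, the ligand of CCR6, was split between classical monocytes at 125.3 CPM (98.53 to 157), with 44 of their 75 UMIs in 3 cells, and the venular cluster at 142.5 CPM.

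CCL2, the classical attractant of CCR2-bearing monocytes, had 2 sources of different kinds. Macrophages had 1170 CPM (1073 to 1274; 535 UMIs) and Schwann cells 876.6 CPM (788.9 to 971.5; 364 UMIs), with a UMI in 29.28% of 222 macrophages and 29.8% of 349 Schwann cells against 3.817% of mural cells. The non-myelinating Schwann-type cluster, led by PTPRZ1 and CDH19, had 1065 CPM (953.8 to 1185), and the myelinating-type cluster, with PRX among its leading genes, had 295.3 CPM (199.2 to 421.6). Of the mural clusters, the smooth muscle cluster led by CH25H, RGS16 and IL6 had 151.5 CPM (128.4 to 177.6) of CCL2 and the other smooth muscle cluster 18.13 CPM (12.14 to 26.04).

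Macrophages led for CCL13 and CCL8 as well, ligands that CCR2 and CCR3 share. CCL13 had 725 of 764 UMIs in macrophages, at 1586 CPM (1473 to 1706), and CCL8 80 of 88 UMIs, at 175 CPM (138.8 to 217.8). These levels move with where the macrophage class is cut. At a finer clustering the class lost cells that were then named dendritic, and CCL13 stood at 4791 CPM and CCL2 at 1861 CPM. All 19 UMIs of CCL24, a CCR3 ligand, were in macrophages (41.57 CPM). CCL7 was highest in neutrophils at 173.7 CPM (118.1 to 246.6), but 19 of those 31 UMIs came from 3 cells.

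Single macrophages tended to hold several of these ligands at once. CXCL8 was seen in 75.38% of macrophages with a CCL2 UMI and 37.58% of the rest, CCL3 in 52.31% and 24.84%, and CCL13 in 43.08% and 23.57%. Depth differs between such cells, and its part was not tested.

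Of the receptors for these CC ligands, CCR1 and CCR2 were highest in classical monocytes, and CCR3 in T and NK cells as given below. CCR1 was at 86.85 CPM (64.86 to 113.9; 52 of 66 UMIs) and CCR2 at 56.79 CPM (39.33 to 79.35; 34 of 47 UMIs). Macrophages had lower levels of both, at 30.63 and 13.13 CPM. Reads of CCR2 could be shared with close copies of this receptor.

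Lymphocytes had their own ligand. CCL5, a T cell and NK cell product that binds CCR1 and CCR3, had 2077 of 2315 UMIs in T and NK cells, at 4578 CPM (4384 to 4780), with a UMI in 76.3% of 616 cells against 1.559% of mural cells. The next class, B cells, had 221.5 CPM on 7 UMIs. XCL1, the ligand of XCR1 on cross-presenting dendritic cells, had 32 of 35 UMIs in T and NK cells (70.54 CPM), 23 of them in 3 cells. Of the lymphocyte receptors, CXCR4 was at 411.3 CPM (219 to 703.3; 13 UMIs) in B cells and 264.5 CPM (219.3 to 316.3; 120 UMIs) in T and NK cells, intervals that overlap. Classical monocytes had 123.6 CPM of CXCR4 and macrophages 76.57 CPM, whereas mural cells had 1.742 CPM. CCR3 had 52 of 64 UMIs in T and NK cells (114.6 CPM, 85.61 to 150.3), although this receptor is best known from eosinophils, and no eosinophil markers were on the lists. CXCR3, the receptor of CXCL9 to CXCL11, had 14 of 18 UMIs in T and NK cells, and CXCR5, the follicular receptor, had 7 of 15 UMIs in the 37 B cells (221.5 CPM, 89.04 to 456.3).

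CX3CL1, a membrane-bound ligand that captures patrolling monocytes, was endothelial, and its receptor CX3CR1 was in the FCGR3A monocytes. Endothelium held 408 of 447 CX3CL1 UMIs, at 166.6 CPM (150.8 to 183.5), spread over all vessel clusters from 120 CPM in the venular to 286.1 CPM in the SLC2A1 cluster. CX3CR1 was at 164.3 CPM (121.6 to 217.2) in FCGR3A monocytes, 81.56 CPM in T and NK cells and 45.1 CPM in classical monocytes. CXCL16, the other membrane-bound ligand, was shared by the myeloid classes: 211.3 CPM (162.3 to 270.3) in FCGR3A monocytes, 135.6 CPM in macrophages and 101.9 CPM in classical monocytes. Its receptor CXCR6 had no UMI in EOM cells.

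The interferon-induced ligands CXCL10 and CXCL11 rested on few cells. CXCL10 had 326 UMIs, with 207.9 CPM in FCGR3A monocytes (49 of 62 UMIs in 3 cells), 125.3 CPM in classical monocytes, 116 CPM in macrophages and 103.9 CPM in the venular cluster. All 16 CXCL11 UMIs of macrophages came from 2 cells (35 CPM), and the venular cluster had 42.85 CPM. CXCL9 had 10 UMIs in endothelium.

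Stromal ligands were few. CXCL14, an epithelial and stromal ligand, was spread over tenocytes (445.9 CPM, 312.3 to 617.3, on 36 UMIs in 10 of 65 cells), fibroblasts (185.1 CPM) and endothelium (177.6 CPM), where the arterial clusters had 696 and 298.4 CPM. CCL19, a ligand of CCR7, was mural, with 109 of 130 UMIs (37.98 CPM, 31.18 to 45.81). CCL26, a CCR3 ligand, was at 91.42 CPM in fibroblasts but from 10 cells, 3 of which held 116 of the 159 UMIs. Those cells went to the tenocyte class under a stricter mitochondrial filter or a higher UMI minimum, and the fibroblast level was then 1.456 or 0 CPM. CCL21, CCL25 and CCR10 had 24, 23 and 29 UMIs over all EOM cells used.

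Summed by role, the neutrophil class had the most ligand, 14236 CPM, ahead of classical monocytes at 8580 CPM, macrophages at 6607 CPM, T and NK cells at 5687 CPM, endothelium at 3214 CPM and fibroblasts at 1775 CPM. Receptor sums were 696 CPM (436.2 to 1054, on 22 UMIs) in B cells, 683.8 CPM (567.8 to 816.4) in neutrophils and 531.2 CPM (466.3 to 602.7) in T and NK cells, an order that counting error does not resolve. Classical monocytes had 362.4 CPM (315.8 to 414), against 17.15 CPM in endothelium and 12.07 CPM in fibroblasts. Atypical receptors reversed this order: fibroblasts had 1675 CPM and endothelium 1614 CPM, and neutrophils 89.67 CPM.

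A list of 52 known ligand and receptor pairs was used to describe which classes hold the sending and the receiving side. A side was given to the class of highest level with at least 10 UMIs. Both genes of 48 pairs were in the cell table, and both sides had such a class for 28, of which 5 had the same class on both sides. Macrophages were the sender in 10 of the 28, neutrophils in 5, classical monocytes and endothelium in 4 each, T and NK cells in 3 and fibroblasts and FCGR3A monocytes in 1 each. Receivers were classical monocytes in 11, T and NK cells in 9, neutrophils in 4, fibroblasts in 2 and B cells and FCGR3A monocytes in 1 each. The fullest routes ran from macrophages to classical monocytes (5 pairs, among them CCL2 and CCL13 to CCR2) and from macrophages to T and NK cells (4 pairs, such as CCL13 to CCR3). Endothelium was the sending class of CXCL12, with CXCR4 of B cells and ACKR3 of fibroblasts on the receiving side, and of CX3CL1, with CX3CR1 of FCGR3A monocytes. Both CXCL8 pairs, with CXCR1 and CXCR2, stayed within neutrophils. Pairs share ligands and receptors, and transcripts on both sides do not show that a protein was made, released or bound.

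**Figure D3:**
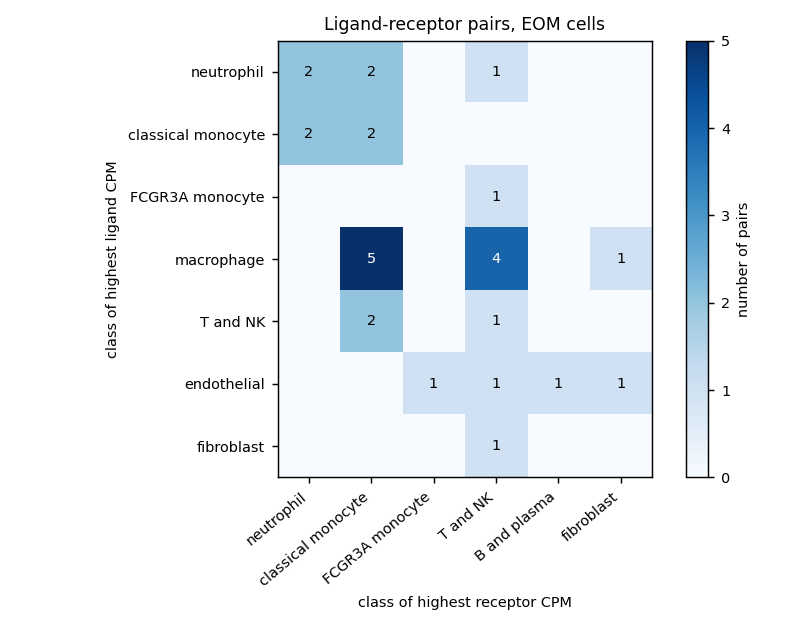
Number of ligand and receptor pairs by sending class (rows) and receiving class (columns) in the EOM cell library, for the 28 pairs with a class of at least 10 UMIs on both sides. The highest count, 5, is from macrophages to classical monocytes, followed by 4 from macrophages to T and NK cells.

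In nuclei the inflammatory ligands CXCL8 and CCL2 were sparse, and CCL3, CCL5 and CXCL3 were not measured. CXCL8 had 5355 UMIs among all deposited EOM cells, 6 among EOM nuclei and 3 among QFM nuclei. CCL2 had 36 and 62 UMIs among the used EOM and QFM nuclei, against 1316 in the shallower cell library. CXCL9 went the other way, with 86 UMIs in EOM nuclei and 10 in EOM cells. Over the whole library CXCL12, ACKR1 and ACKR3 stood at 943.8, 358.6 and 412.8 CPM in EOM cells and at 77.34, 24.68 and 35.48 CPM in EOM nuclei, with the same leading classes. No neutrophil, classical monocyte or FCGR3A monocyte class was named in either nuclei library. A list of genes known to rise during tissue dissociation summed to 17304 CPM over the cell library, 230.6 CPM over EOM nuclei and 740 CPM over QFM nuclei, and its part in these levels was not tested. Cells and nuclei also differ in RNA fraction and gene table, so values stand side by side only.

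**Figure D4:**
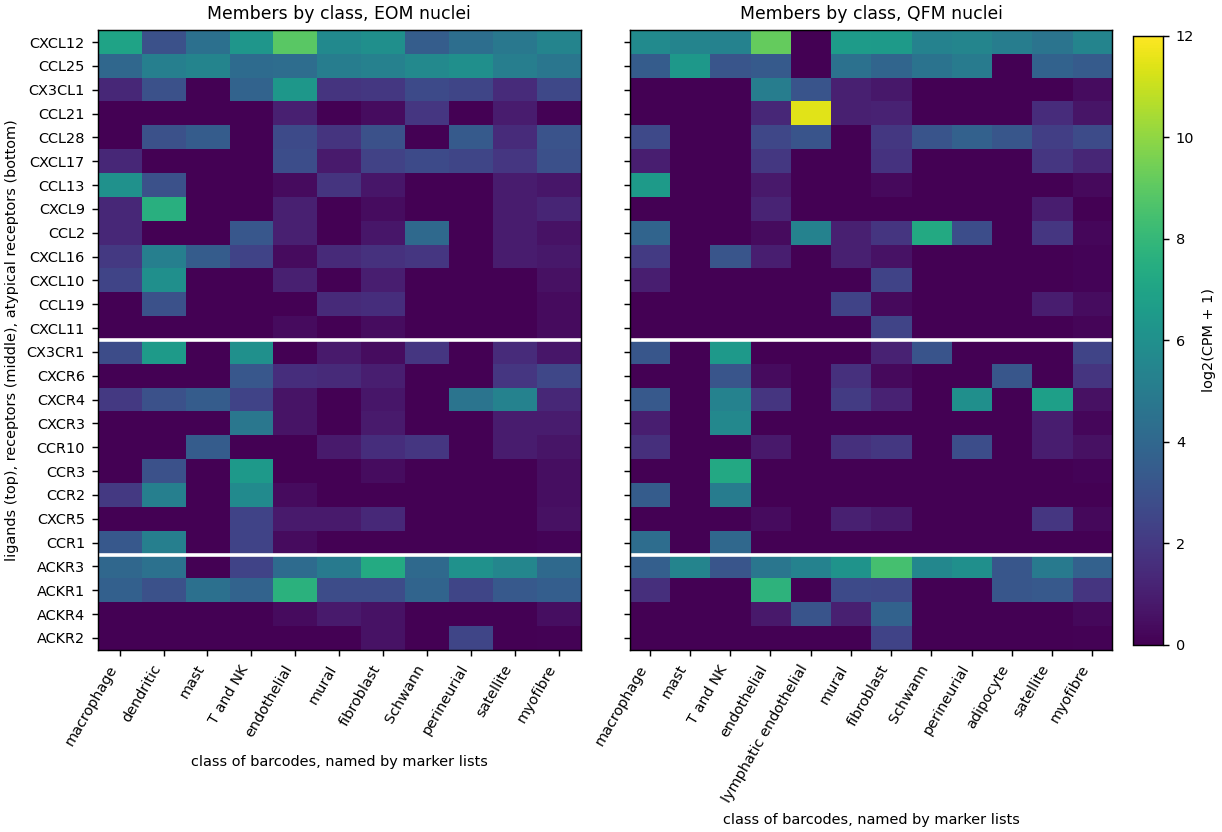
Levels of the members in the classes of the EOM nuclei (left) and QFM nuclei (right), on a log2(CPM + 1) colour scale. CXCL12 and ACKR1 are brightest in endothelium and ACKR3 in fibroblasts in both, and CCL21 stands out in the lymphatic class of QFM (2805 CPM).

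In the nuclei of both muscles CXCL12 was again highest in endothelium and there in the capillary-type cluster, but the venular cluster was lowest in QFM only. Endothelium had 488.1 CPM (465.6 to 511.5) in EOM and 579.4 CPM (555.8 to 603.8) in QFM. The capillary-type cluster, led by RGCC, IFI27 and RNASE1, had 1064 CPM (987.9 to 1144) in EOM and 994.2 CPM (950 to 1040) in QFM, the arterial clusters had 227.6 and 416.6 CPM, and the venular clusters 382.7 and 42.52 CPM. ACKR1 was again highest in the venular clusters, at 291.5 CPM (270.1 to 314.1) in EOM and 653.9 CPM (609.8 to 700.4) in QFM. The EOM venular cluster was also led by SLC7A1 and SLC19A3, and SLC19A3 was also among the leading genes of the SLC2A1 cluster in the cells, so the venular clusters of EOM and QFM differ in their leading genes. Where a wider margin between marker scores was asked of each name, this EOM cluster lost its name and ACKR1 in EOM endothelium fell from 202 to 32.2 CPM.

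ACKR3 was highest in fibroblasts of both libraries, at 159.3 CPM (149.4 to 169.6) in EOM and 347.4 CPM (329.7 to 365.8) in QFM over all fibroblast clusters. In QFM the cluster led by CLEC3B, MFAP5 and PI16 had 536.1 CPM (501.6 to 572.3) and the one led by SCN7A and EPHA3 had 219.6 CPM (201.5 to 238.9). CXCL12 ran the other way between these QFM clusters, at 49.5 CPM (39.42 to 61.36) and 118.7 CPM (105.5 to 133.1). ACKR3 was about as frequent in QFM fibroblasts with a CXCL12 UMI (54.72%) as in the rest (54.05%).

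CXCR4, the receptor that guides myogenic cells towards CXCL12, was highest in satellite cells, the resident muscle stem cells. EOM satellite nuclei had 39.19 CPM (28.36 to 52.78; 43 UMIs in 40 of 556 nuclei) and QFM satellite nuclei 109.3 CPM (90.58 to 130.8; 119 UMIs in 94 of 398 nuclei). Myofibre nuclei had 1.53 and 0.4498 CPM and endothelial nuclei of QFM 2.554 CPM. With each nucleus thinned to 500 UMIs, CXCR4 was seen in 1.439% of EOM and 6.03% of QFM satellite nuclei, against 0.1031% and 0.02707% of myofibre nuclei. The perineurial class followed at 23.64 and 62.01 CPM on few UMIs (10 in QFM).

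Among the immune ligands and receptors, CCL13 and CCR3 had the same leading classes as in the cells, and CCL2 did not. In EOM nuclei CCL2 was given to myofibre nuclei at 0.5196 CPM, with 14 of 18 UMIs in 3 nuclei. Schwann nuclei there had 16.21 CPM but fell below the minimum of 10 UMIs. CX3CR1 could not keep its leading class, since no FCGR3A monocyte class was named in nuclei. CCL13 was highest in macrophages, at 65.42 CPM (47.53 to 87.82) in EOM and 92.44 CPM (74.24 to 113.8) in QFM, and its receptor CCR3 in T and NK cells, at 86.48 CPM (52.82 to 133.6) and 149 CPM (89.72 to 232.7). CX3CL1 was endothelial as in the cells, at 80.85 and 32.69 CPM. CX3CR1, highest in FCGR3A monocytes among the cells, was at 64.86 and 86.28 CPM in T and NK cells, and at 90.61 CPM in the dendritic class of EOM. T and NK cells of the EOM cell library had 81.56 CPM. The QFM value rests on 11 of 212 CX3CR1 UMIs, 7 of the 11 in 3 nuclei. CCL21, the lymphatic ligand that draws CCR7-bearing cells into lymph vessels, had 362 of 401 UMIs in the 41 lymphatic nuclei of QFM, at 2805 CPM (2523 to 3109), with a UMI in 30 of them and 191 of the 362 UMIs in 3 nuclei. EOM nuclei gave no lymphatic class. CCL2 in QFM was highest in Schwann cells (154.3 CPM), yet 17 of those 20 UMIs came from 1 of 31 nuclei, and CXCL9 in the EOM dendritic class (188.2 CPM) had 21 of 27 UMIs in 3 nuclei.

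Of the pairs on the list, 38 could be looked up in each nuclei table, and 13 had a class on both sides in each. Endothelium to satellite cells (CXCL12 and CXCR4), endothelium to fibroblasts (CXCL12 and ACKR3) and macrophages to T and NK cells (CCL13 and CCR3) were found in both muscles, and the ACKR3 and CCR3 pairs also in EOM cells. Where the receiving side of CX3CL1 was concerned, the class was dendritic in EOM nuclei and T and NK in QFM nuclei. In EOM nuclei the large myofibre class met the minimum of 10 UMIs at under 1 CPM for CCL2, CXCL10, CXCL11 and CXCR3, so its 6 sending and 4 receiving pairs there rest partly on its size.

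Some members were found over the myofibre nuclei at low, even levels. CCL28, a mucosal ligand of CCR10 and CCR3, was at 7.534 CPM in the myofibre nuclei of EOM and 5.634 CPM in those of QFM, and CXCL17 at 6.639 CPM in EOM. CCL25, the ligand of CCR9, was found in every EOM class, from 14.87 CPM (10 UMIs) in macrophage nuclei through 25.52 CPM in myofibre nuclei to 61.46 CPM (13 UMIs) in perineurial nuclei. CXCR6 was at 4.965 and 2.557 CPM in myofibre nuclei and at 0 UMIs in EOM cells. In the RefSeq annotation of assembly T2T-MFA8v1.1 the CXCR6 gene lies inside FYCO1, which stood at 176.3 and 185.5 CPM in myofibre nuclei. ACKR4 likewise lies inside ACAD11 (48.29 and 33.45 CPM), and CCL21 and CCL19 inside PHF24 (9.266 and 8.995 CPM). CXCL17 lies inside a long non-coding RNA gene, and CCR1 inside CCR3. Whether the counting used strand was not given in the sources used here, so reads of such nested genes cannot be told apart.

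CXCL12 itself varied among the 5 largest QFM myofibre clusters. Those led by ATP2A1 and MYBPC2, genes of fast fibres, had 52.35 CPM (46.58 to 58.63) and 66.9 CPM (60.69 to 73.56) of CXCL12, and a cluster led by GLRA3 and NPR3 had 61.73 CPM. The cluster led by ATP2A2 and TNNI1, genes of slow fibres, had 19.54 CPM (16.63 to 22.8), and one led by PPP1R1C and DKK2 had 12.83 CPM (10.6 to 15.39). In EOM myofibre nuclei the main clusters were closer, from 20.27 CPM (16.53 to 24.6) to 33.83 CPM (28.96 to 39.28). Higher values were found in the EOM cluster led by mitochondrial genes (71.49 CPM) and in a shallow one (93.3 CPM, median depth 1292.5 UMIs).

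EOM and QFM nuclei were compared class by class for every gene with at least 20 UMIs over both sums, and a fold of at least 2 was called. Outside fibroblasts, clusters were left out where another class had more markers than their own among the top 10 genes. This took a QFM myofibre cluster of 143 nuclei out of the comparison. Fewer cells of a type and less RNA per cell are separated here only as far as the clusters are pure. In endothelium, 2 of 7 members were higher in EOM, none lower, where 12.1% of all features tested were higher and 5.81% lower. CX3CL1 stood at 80.85 CPM in EOM against 32.69 CPM in QFM (log2 difference of 1.31, 1.0 to 1.62), and CXCL17 at 6.112 and 2.809 CPM. Cluster by cluster, the capillary-type clusters had 2 of 5 members higher in EOM and none lower (8.74% and 6.33% of features), the venular clusters 2 of 5 higher and 1 lower (13.2% and 6.77%), and the arterial clusters none of 3 in either direction (6.89% and 8%). The one lower member was ACKR1 in the venular clusters (log2 -1.17, -1.31 to -1.02), where CXCL12 was higher (3.17, 2.77 to 3.60). The CX3CL1 difference was largest between the venular clusters (97.16 and 22.47 CPM, log2 2.11, 1.54 to 2.73), smaller between the capillary-type clusters (0.59, -0.05 to 1.22) and near 0 between the arterial clusters (0.04, -0.72 to 0.79). It was 0.61 and no longer called with the wider naming margin, which takes the EOM venular cluster out. Levels of CXCL12 and ACKR1 differed by less than 2-fold over all endothelium (log2 -0.25 and -0.10), but with the wider naming margin ACKR1 stood at -2.75.

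**Figure D5:**
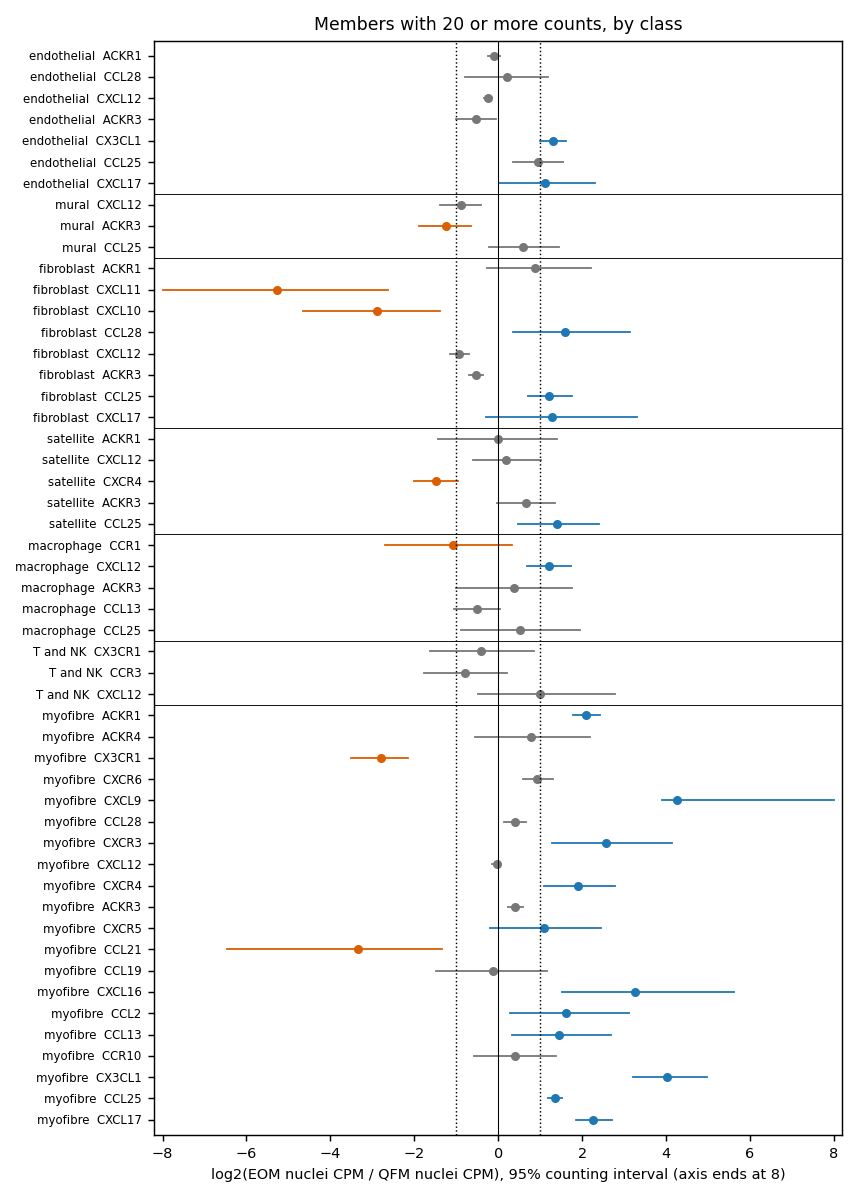
Log2 ratio of EOM to QFM nuclei for each member with at least 20 UMIs in a class, with exact 95% intervals as bars, cut where they leave the axis, grouped by class. Dotted lines stand at a 2-fold difference, and blue and orange mark called members, higher and lower in EOM. The point of CXCL9 in myofibres takes its QFM count of 0 as 3, and its interval starts at 3.90. CXCR4 in satellite cells (-1.48) and CXCL10 and CXCL11 in fibroblasts (-2.88 and -5.28) lie below the lower line, and CX3CL1 in endothelium (1.31) and myofibres (4.03) above the upper one.

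In satellite cells, 1 of 5 members was higher in EOM and 1 lower, where 9.69% of features were higher and 12.4% lower. The lower one was CXCR4, with a log2 difference of -1.48 (-2.02 to -0.97), 39.19 against 109.3 CPM as given above. It ranged from -2.07 to -1.28 over the alternatives tried, some of which could not change it, and missed the call only where a 4-fold difference was asked. Of 7 marker lists of immune cells, 4 summed higher in EOM satellite nuclei and 3 lower. The T and NK list summed to 46.48 CPM in EOM and 15.62 CPM in QFM and the macrophage list to 84.75 and 34 CPM, while the neutrophil list summed to 12.76 and 51.45 CPM, the classical monocyte list to 29.16 and 39.51 CPM and the dendritic list to 279.8 and 338.1 CPM. Their part in the CXCR4 difference was not tested. The higher one was CCL25 (33.72 and 12.86 CPM).

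Fibroblasts were compared between the largest fibroblast cluster of each library, since the EOM class was mixed. Both clusters had SCN7A and EPHA3 among their top 10 genes, but they were not matched as 1 subtype. The EOM cluster had no fibroblast marker among those genes. Of 8 members, 3 were higher in EOM and 2 lower, where 13.4% of features were higher and 11% lower. CXCL10 had 5 UMIs in EOM and 18 in QFM (0.9889 and 7.266 CPM, log2 -2.88, -4.66 to -1.39). CXCL11 had 1 and 19 UMIs (0.1978 and 7.67 CPM, log2 -5.28, -10.65 to -2.62). In QFM 14 of the 18 CXCL10 UMIs came from 3 nuclei, while the CXCL11 UMIs were in 16 nuclei. CCL25, CCL28 and CXCL17 were the higher ones, at 36.39, 7.318 and 3.956 CPM in EOM and 15.74, 2.422 and 1.615 CPM in QFM. CXCL17 rests on 20 and 4 UMIs with an interval of -0.29 to 3.30 that spans 0, and it missed the call with the stricter mitochondrial filter (0.85) or pooled clusters (0.77), as CCL28 did with doublets kept (0.93). ACKR3 was lower by less than 2-fold (log2 -0.54, -0.70 to -0.37), and over all fibroblast clusters pooled it was called, at -1.12 (-1.24 to -1.01), while with doublets kept it stood at 0.05. In that pooled comparison ACKR4 had 3 and 53 UMIs (0.4936 and 12.76 CPM) and ACKR2 had 3 and 18 UMIs (0.4936 and 4.333 CPM). There 3 of 12 members were higher and 5 lower, where 14.2% of features were higher and 13.7% lower.

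The mural, macrophage and lymphocyte classes gave few members to compare. In mural cells 1 of 3 was lower in EOM, none higher, where 14.2% were higher and 12.3% lower: ACKR3, at 29.95 and 71.32 CPM (log2 -1.25, -1.88 to -0.64), which fell short of the call at -0.99 with doublets kept. In macrophages 1 of 5 was higher and 1 lower, where 6.90% were higher and 17.1% lower. CXCL12 was the higher one, at 121.9 and 52.97 CPM (log2 1.20, 0.68 to 1.74), and the summed endothelial markers in the same class were 330.1 and 241 CPM. The lower one was CCR1 (8.92 and 18.7 CPM on 6 and 18 UMIs), whose interval of -2.69 to 0.33 spans 0. Both macrophage calls ended with doublets kept (0.85 and -0.41) or with a higher UMI minimum (0.86 and -0.74), where other members passed instead, 4 and 3 higher in EOM and none lower. The classical monocyte list summed to 229 CPM in EOM and 3157 CPM in QFM macrophages and the dendritic list to 963.4 and 6024 CPM, and their part was not tested. In T and NK cells none of 3 passed in either direction, where 10.9% were higher and 10.4% lower, on 136 and 44 nuclei. These small classes gave calls under several alternatives. CXCL12, at a log2 difference of 0.99, stood at 1.60 with doublets kept, 1.18 at a finer clustering, 3.24 with the stricter mitochondrial filter and 1.01 with a higher UMI minimum. CCR3 (-0.79) stood at -2.02 and CX3CR1 (-0.41) at -1.46 at the finer clustering, and CCR3 at -1.09 with the higher UMI minimum.

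In myofibre nuclei 11 of 20 members were higher in EOM and 2 lower, where 33.5% of features were higher and 8.94% lower and the median of all features was a log2 difference of 0.42. CX3CL1 had 179 UMIs in EOM and 13 in QFM (5.167 and 0.3157 CPM, log2 4.03, 3.22 to 4.97). ACKR1 had 375 and 104 UMIs (10.82 and 2.525 CPM, log2 2.10, 1.78 to 2.43), and CXCL17 230 and 57 UMIs (6.639 and 1.384 CPM, log2 2.26, 1.84 to 2.71). CXCL9 had 48 UMIs and none in QFM, and 32 of the 48 were in the shallow EOM cluster. CX3CR1 went the other way, with 22 and 182 UMIs (0.635 and 4.419 CPM, log2 -2.80, -3.51 to -2.16), and each of the 5 largest QFM myofibre clusters had between 2.102 and 7.153 CPM. Levels of CXCL12 were close (41.28 and 42.28 CPM, log2 -0.03, -0.14 to 0.07), but the difference was -0.72 at a finer clustering and -0.45 under median-ratio scaling. Of 17 marker lists of other cell types, 13 summed higher in EOM myofibre nuclei and 4 lower. The endothelial list summed to 430.3 and 77.1 CPM, the fibroblast list to 460.9 and 96.79 CPM and the macrophage list to 146.2 and 44.57 CPM. The lower ones were the neutrophil (30.28 and 569.8 CPM), epithelial (96.38 and 980.7 CPM), perineurial (184.5 and 592.4 CPM) and melanocyte (449.7 and 818.7 CPM) lists. Their part in the members' differences was not tested. Without the shallow EOM cluster 7 of 17 members were higher and 2 lower, where 32.4% of features were higher and 9.38% lower.

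Other genes of the chemokine system were described from lists. A list gene with at least 20 UMIs over the library was given to its class of highest CPM, with no minimum of UMIs in that class. Small classes can therefore lead on few counts, and the share of all features led by each class is not given here. In EOM cells, 14 of 30 measured genes of chemokine receptor signalling were highest in neutrophils, among them RGS2 (1939 CPM), the Gi subunit GNAI2 (644.5 CPM) and LYN (538 CPM). Of 20 genes of leukocyte adhesion and crossing, 12 were highest in endothelium, with PECAM1 at 1750 CPM, ESAM at 1089 CPM, CD34 at 1082 CPM and PLVAP at 553.2 CPM. Part of this count was built in, since PECAM1, CDH5, SELE, SELP, VCAM1 and PLVAP were also markers from which endothelial clusters were named. Of 20 NF-kB targets and inflammatory cytokines, 6 were highest in neutrophils and 6 in classical monocytes, where NFKBIA stood at 3486 CPM and IL1B at 2338 CPM. Interferon targets were led by endothelium for 8 of 21, with IFI6 at 782.2 CPM and IFIT3 at 454 CPM. Heparan sulfate genes were led by tenocytes for 8 of 22, and fibroblasts had 593.4 CPM of the sulfatase SULF1 and 516.9 CPM of the syndecan SDC2.

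Between the muscles' nuclei, the receptor signalling list in endothelium had 4 of 23 genes higher in EOM and none lower (median log2 0.23, all features 0.08), where 12.1% of all features were higher and 5.81% lower. The adhesion list there had 1 of 14 higher and 1 lower (median -0.60). In satellite cells 4 of 8 NF-kB targets were lower and none higher (median -0.93, all features 0.01), where 12.4% of features were lower and 9.69% higher. In fibroblasts interferon targets had 4 of 14 higher and none lower (median 0.40, all features 0.04), where 13.4% of features were higher and 11% lower. The higher ones included MX1 (log2 2.01) and IFI44L (2.42), while the interferon-induced CXCL10 and CXCL11 were lower. Larger shifts of this list were found in myofibre nuclei, with 13 of 17 higher and none lower (median 1.90, all features 0.42). In endothelium 2 of 17 were lower and none higher. The adhesion list had 16 of 18 higher and 1 lower in myofibre nuclei (median 1.88), where 33.5% of features were higher and 8.94% lower. In satellite cells it had 4 of 6 higher and 1 lower (median 1.07). The dissociation list was lower in EOM for 6 of 10 genes in endothelium, 10 of 12 in fibroblasts and 9 of 10 in satellite cells, and its part in the members' differences was not tested.

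Many members neighbour each other in the genome. In the gene order of T2T-MFA8v1.1, 11 runs of adjacent protein-coding genes held only members, among them CCL2, CCL7, CCL11, CCL8, CCL13 and CCL1. Neighbours did not share 1 class: in EOM cells the highest class was macrophages for CCL2, CCL8 and CCL13 and neutrophils for CCL7, and T and NK cells for CCR3 but classical monocytes for its neighbours CCR1 and CCR2. CCL3 had its highest level in classical monocytes, and CCL5, which is in none of these runs, in T and NK cells. CXCL1L and CXCL1 are adjacent and were highest in mural cells and classical monocytes.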

How the data were processed

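Per the submitters' processing notes, the authors used Cell Ranger 7.2.0 and Seurat 5.2.1. The genome build and annotation behind the counts were not given in the sources used here. Raw UMI counts, genes by barcodes, are what the deposited matrices hold, and no cell labels of the authors were used here. Symbols of 2 rows named by a locus number in the cell table (CXCL14 and CCL15) came from RefSeq.

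Barcodes with at least 200 genes, at least 500 UMIs and at most 20% (cells) or 10% (nuclei) mitochondrial UMIs were kept. Doublets were called per library and removed (2.576% of cells, 15.16% of EOM and 15.06% of QFM nuclei). With scanpy 1.11.5, 2000 variable genes without the members, 30 principal components and Leiden clustering at resolution 1 gave 21, 27 and 23 clusters. Of 26 marker lists, a cluster took the name of the highest-scoring one among those with at least 3 markers detected, if that score passed a minimum. The name was dropped where the cluster was shallow without a marker among its top 10 genes or those genes went against the name. Counts were summed per class. CPM has exact Poisson intervals, shares have Clopper-Pearson intervals and log2 ratios have conditional exact binomial intervals, all at 95%. A count of 0 was taken as 3 in a ratio. The ratio step alone recovered known folds on simulated counts, which says nothing of the filters, doublet calls, clustering or class names. Nothing is drawn from it for members with few UMIs or with UMIs concentrated in few nuclei. Members with at least 50 UMIs in cells or 100 in nuclei, and receptors of named ligands, are described singly, and up to 4 genes of each list are named. The members and lists were chosen with earlier results of these data known. Sequences were not used here. Some single-gene values are not reported here, although the counts over members and lists include those genes. The label of the QFM library says nuclei, while its deposited files are named for cells. Its mitochondrial share of 0.19% is given as measured, and it was treated as nuclei.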

Additional observations from a re-analysis of the deposited data

How the results depend on the processing

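No paired analysis was possible because each group has 1 library, and for the same reason no library could be left out. Several alternatives were added after seeing the data: pooled fibroblast clusters, myofibres without the shallow EOM cluster, no shared barcodes, and minimums of 3 and 30 UMIs for a leading class. Of 35 members with a leading class in EOM cells, 21 kept it under the stricter mitochondrial filter, which left 2203 barcodes. In nuclei, 10 of 21 EOM and 10 of 20 QFM members kept theirs with at least 30 UMIs, and 7 and 6 after thinning to 500 UMIs. The 13 complete pairs of EOM nuclei became 20 with a minimum of 3 UMIs, 3 with 30 and 1 after thinning, and the 13 of QFM nuclei became 3 with 30 and 3 after thinning. Over the 7 classes 51 values of 1 member in 1 class were compared, and a gene can count in several classes. Of these values 18 were higher and 7 lower in EOM, and 11 of the higher ones were in myofibre nuclei. Over all features, 33.5% were higher and 8.94% lower in myofibre nuclei. In the other classes 6.90% to 14.2% were higher and 5.81% to 17.1% lower. Such shares are given for the main setting only. The counts of 18 and 7 were 8 and 4 after thinning, 34 and 24 with at least 5 UMIs, 9 and 3 with at least 50, and 6 and 4 with a 4-fold call. Under the other alternatives run, higher counts were 13 to 25 and lower counts 6 to 10. Fewer counts pass by construction under thinning and higher minimums. Of 730 recomputed ratios of members, 41 moved beyond the counting interval, and none that was called changed sign. Many of the 730 could not move. A new fold or minimum count leaves every ratio as it was, and pooled fibroblasts or a dropped myofibre cluster change 1 class only. Of 345 recomputed CPM values of members in their leading class, 81 moved beyond the counting interval. CXCL12 in endothelium of EOM cells, at 2556 CPM, stood at 3990 CPM with the stricter mitochondrial filter and 1796 CPM with the wider naming margin. Most receptors rest on few counts, under 100 UMIs in a library, which sets the width of their intervals.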
